A study of Mus musculus with 2 samples.

Results

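The tubulin genes described here are 10 genes, 4 for alpha tubulin (Tuba1a, Tuba1b, Tuba1c and Tuba4a) and 6 for beta tubulin (Tubb2a, Tubb2b, Tubb3, Tubb4a, Tubb4b and Tubb5), out of 43346 annotated genes. They were chosen by symbol through their Ensembl identifiers, and all 10 were found in the mm10 gene tables, in the mm10 transcript tables and in the mm9 gene table. Whole brains were taken from embryonic mice (strain C57BL/6J, day 14.5), with no treatment or engineered allele named. From their polyadenylated RNA over 200 bases long, 2 stranded libraries were made and read from both ends, with the read length given as PE101. The labels call the libraries biological replicates 1 and 2 and describe littermates of mixed sex. They do not tie animals to libraries, so which sources of variation the spread between the replicates covers is not known. There is 1 group, so every value is given per library with the mean and SD over 2 libraries, and no p-value was computed.

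Microtubules are hollow polymers of dimers made of 1 alpha and 1 beta tubulin. Each kind is encoded by several genes whose proteins differ, where they do, mostly in their last residues, the tails that stick out from the microtubule and carry enzymatic modifications. In the developing brain microtubules form the spindle of dividing progenitors and the shaft of growing axons and dendrites, and they guide migrating neurons. Tuba1a, Tubb2b and Tubb3 are known for their expression in young neurons, and variants in the human genes cause malformations of the cortex. Tubb5 and Tubb4b are also used by dividing cells.

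The coding sequences of some of these genes are so alike that reads of one can fit another, which bears on the values of those genes. A stretch of spliced mRNA of the length of 1 read shows 1 place where beta genes differ. It covers coding bases 117 to 217 across intron 2, for the 2 closest beta genes, Tubb2b and Tubb2a, and for the neuronal Tubb3. The stretches are given in GRCm38 (mm10) coordinates and printed 5′ to 3′ along the mRNA from the GENCODE vM21 transcripts. Capitals mark bases that differ from Tubb2b at the same position. The Tubb2b stretch joins chr13:34129246-34129295 to chr13:34128932-34128982 on the minus strand, that of Tubb2a chr13:34076549-34076598 to chr13:34076238-34076288 on the minus strand, and that of Tubb3 chr8:123418152-123418201 to chr8:123418940-123418990 on the plus strand.
Tubb2b: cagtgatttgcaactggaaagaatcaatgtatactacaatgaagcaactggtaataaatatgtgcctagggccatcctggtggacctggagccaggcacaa
Tubb2a: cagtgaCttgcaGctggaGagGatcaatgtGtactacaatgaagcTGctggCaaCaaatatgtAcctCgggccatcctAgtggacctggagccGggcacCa
Tubb3: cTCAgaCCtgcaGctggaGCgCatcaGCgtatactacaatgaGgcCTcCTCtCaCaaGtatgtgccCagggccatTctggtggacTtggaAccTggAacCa
Tubb2a differed from Tubb2b at 14 positions and Tubb3 at 27. This stretch is less alike between Tubb2a and Tubb2b than their coding sequences as a whole, which were 96.5% identical with an identical run of 551 bases. It therefore does not show the parts where reads of 1 of these genes can fit the other.

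The ends of the coding sequences encode the tails. The last 60 coding bases follow, stop codon included, with the last codon before the stop in capitals, for Tubb2b (chr13:34127471-34127530, minus strand), Tubb2a (chr13:34074468-34074527, minus strand) and Tubb3 (chr8:123421623-123421682, plus strand).
Tubb2b: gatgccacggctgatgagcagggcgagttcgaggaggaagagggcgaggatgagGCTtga
Tubb2a: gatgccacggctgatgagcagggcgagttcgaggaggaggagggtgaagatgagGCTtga
Tubb3: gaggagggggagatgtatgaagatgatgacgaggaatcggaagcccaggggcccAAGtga
Tubb2a differed from Tubb2b at 3 of these 60 bases, none of which changes the encoded residue. The printed ends of this pair thus encode the same residues, and both had GCT as the last codon. Tubb3 had AAG.

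Over whole coding sequences the alpha genes were 84.7% to 98.3% identical, in 6 pairs, and the beta genes 81.2% to 96.5%, in 15 pairs. An alpha and a beta gene were 52.3% to 55.1% identical, in 24 pairs. Tuba1a and Tuba1b were the closest alpha pair at 98.3%, followed by Tuba1b and Tuba1c at 97.9% and Tuba1a and Tuba1c at 97.1%. Tubb2a and Tubb2b, at 96.5%, were the closest beta pair, with an identical run of 551 bases. These close genes are also neighbours in the genome. Tuba1b (chr15:98931425-98934565, minus strand), Tuba1a (chr15:98949837-98953703, minus strand) and Tuba1c (chr15:99029891-99038110, plus strand) lie side by side on chromosome 15, and Tubb2a (chr13:34074274-34078007) and Tubb2b (chr13:34126748-34130466) lie on the minus strand of chromosome 13. The other 5 genes lie on chromosomes 1 (Tuba4a, 75214228 to 75219865, minus strand), 8 (Tubb3, 123411424 to 123422015, plus strand), 17 (Tubb4a, 57080066 to 57087782, and Tubb5, 35833921 to 35838306, both on the minus strand) and 2 (Tubb4b, 25222160 to 25224702, minus strand).

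Every window of 1 read length in a transcript was then looked up in the transcripts of all other genes. Of the Tuba1b windows 65.4% occurred in another gene, of the Tuba1c windows 53.3% and of the Tuba1a windows 49.1%. For Tubb2a the share was 36.7% and for Tubb2b 27.6%, nearly all of it between these genes: 540 windows were common to both. Tubb4b shared 28.8% of its windows, all with 3 processed pseudogenes and none with another tubulin gene of the 10. Tuba4a, Tubb3, Tubb4a and Tubb5 shared no window. Every shared window lay inside coding sequence, and no window that reached into an untranslated region was shared. The shared windows also led to 12 pseudogenes, of which 9 had a row in the gene tables. The highest of these 9 was Gm14150, with 15.7 TPM in replicate 1 against 25.2 TPM in replicate 2, and all 9 summed to 26.3 and 42.2 TPM. TPM is a level scaled by transcript length, so it can be compared between genes.

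**Figure D1:**
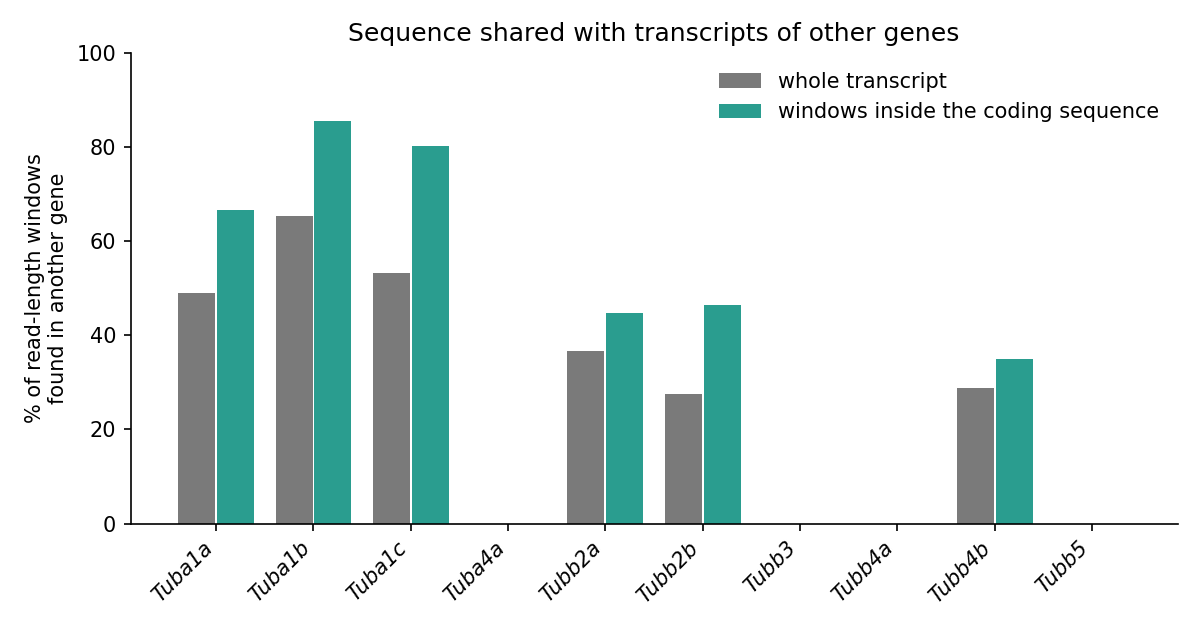
Share of read-length windows of each tubulin transcript that occur in a transcript of another gene, in percent, for the whole transcript (grey) and for windows inside the coding sequence (green). Gm49450 was not searched. Tuba1b is highest at 65.4% of the whole transcript, and Tuba4a, Tubb3, Tubb4a and Tubb5 are at 0.

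The tubulin genes were among the most abundant mRNAs of this tissue. The 10 genes together held 30259 TPM in replicate 1 and 28877 TPM in replicate 2, or 2.96 ± 0.0977% of all TPM (SD, n = 2). Ranked by mean TPM among 21461 nuclear protein-coding genes, 5 of the 10 were among the 15 highest: Tuba1a, Tubb2b, Tubb2a, Tubb5 and Tubb3. The median nuclear protein-coding gene had 5.39 and 5.92 TPM. The members nevertheless ranged from Tuba1a, the highest of these genes, to Tuba4a, at 4.40 ± 2.33 TPM (SD, n = 2).

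Among the alpha genes Tuba1a, the main alpha tubulin of growing neurons, had 10398 TPM in replicate 1 and 12272 TPM in replicate 2 (11335 ± 1325, SD, n = 2), from 1010276 and 1079340 expected counts. It ranked 1 in both libraries. Tuba1b, an alpha tubulin found in most cell types, had 2380 and 1658 TPM (2019 ± 511, SD, n = 2), at ranks 18 and 29. Replicate 1 was the higher library for Tuba1b and replicate 2 for Tuba1a. Tuba1c, also broadly expressed, had 72.8 and 37.0 TPM (54.9 ± 25.3, SD, n = 2), at ranks 2310 and 4327. Tuba4a had 2.75 and 6.05 TPM, at ranks 11986 and 10673, from 232 and 363 expected counts. The 4 alpha genes were far apart, and their ranges did not overlap.

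In each library Tuba1a held most of the summed alpha TPM: 80.9% in replicate 1 and 87.8% in replicate 2. Tuba1b held 18.5% and 11.9%, and Tuba1c held 0.567% and 0.265%. The alpha pool was thus mostly the product of 1 gene, by this quantification. The ratio of Tuba1a to Tuba1b was 4.37 and 7.40, a mean log2 ratio of 2.51 ± 0.54 (SD, n = 2). That of Tuba1a to Tuba1c was 143 and 331, a mean log2 ratio of 7.76 ± 0.86 (SD, n = 2), and that of Tuba1b to Tuba4a was 865 and 274, a mean log2 ratio of 8.93 ± 1.17 (SD, n = 2). The order of the alpha genes was thus common to both libraries, while the size of the steps varied.

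Among the beta genes Tubb2b, a neuronal beta tubulin, was highest with 7983 TPM in replicate 1 and 6617 TPM in replicate 2 (7300 ± 966, SD, n = 2), at ranks 3 and 2. Tubb2a, its close neighbour, had 3135 and 2516 TPM (2826 ± 437, SD, n = 2). Tubb5, the beta tubulin common to dividing and differentiated cells, had 2950 and 2549 TPM (2750 ± 284, SD, n = 2). Tubb3, the beta tubulin used as a marker of neurons (the TuJ1 antigen), had 2753 and 2640 TPM (2696 ± 79.8, SD, n = 2). The last 3 genes could not be put in order, since their ranges overlapped and the order of neighbours turned between the libraries. Tubb4b, a broadly expressed beta tubulin that cilia also use, had 434 and 342 TPM (388 ± 65.1, SD, n = 2). Tubb4a, known from mature neurons and oligodendrocytes, had 151 and 239 TPM (195 ± 62.5, SD, n = 2). All other neighbours in the order of the 10 genes had ranges that did not overlap.

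The beta pool was more evenly divided than the alpha pool. Tubb2b held 45.9% of the summed beta TPM in replicate 1 and 44.4% in replicate 2, Tubb2a 18.0% and 16.9%, Tubb5 17.0% and 17.1%, and Tubb3 15.8% and 17.7%. Tubb4b held 2.49% and 2.29%, and Tubb4a 0.866% and 1.60%. Of 9 pairs of members compared, 8 stood apart, which means the same sign in both libraries and a mean log2 ratio above 1 and above its SD. The ninth was Tubb3 over Tubb5, at -0.02 ± 0.11 (SD, n = 2). By intron 1 reads, a choice made after seeing the data and described further on, this pair was apart at -1.63, and it was -0.72 by reads of the last intron and -0.53 in expected counts, which are not corrected for length. Tubb4b over Tubb4a was the narrowest of the 8, at 1.02 ± 0.71 (SD, n = 2), and with replicate 2 alone it was 0.51, below the limit. The 6 beta genes summed to 17405 and 14903 TPM and the 4 alpha genes to 12854 and 13973 TPM, so that the alpha sum was 0.738 and 0.938 times the beta sum.

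**Figure D2:**
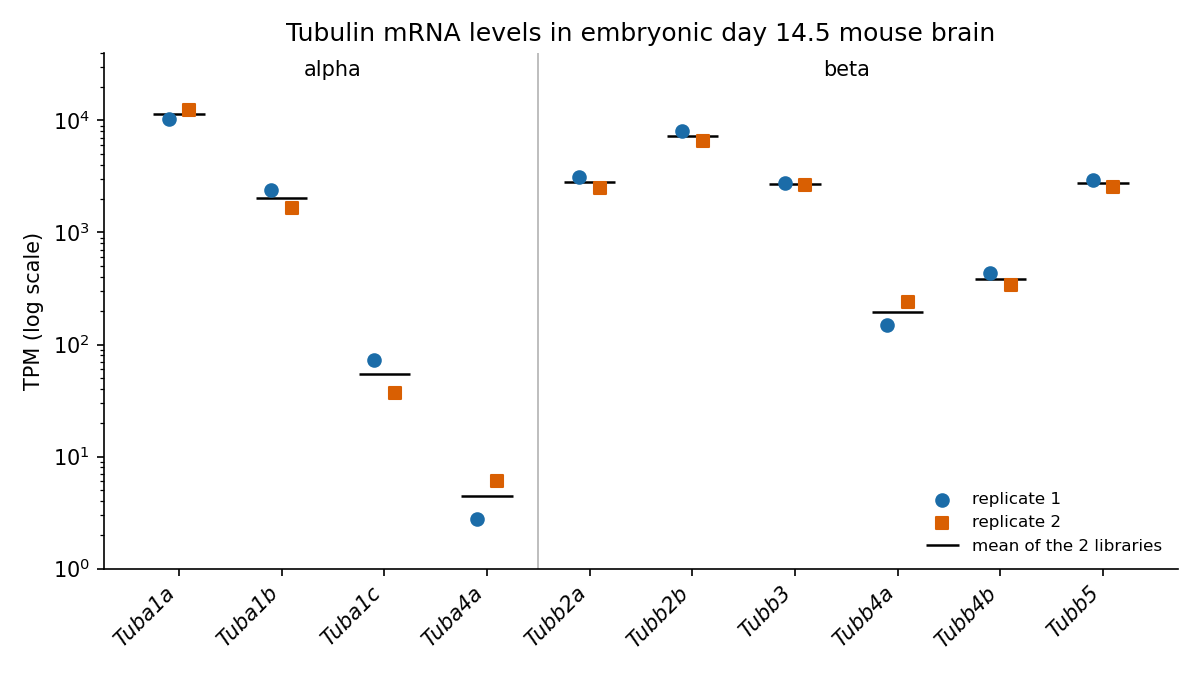
TPM (log scale) of the 10 tubulin genes in replicate 1 (circles) and replicate 2 (squares), with the mean of the 2 libraries as a line. Tuba1a and Tubb2b lead, Tubb2a, Tubb3 and Tubb5 sit together between 2516 and 3135 TPM, and Tuba4a is lowest at a mean of 4.40 TPM.

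In depth, replicate 1 held 107938353 expected counts and replicate 2 held 101105391. Beside each count the authors deposited a posterior SD, an estimate of how unsurely fragments were divided between genes. It was 0 for Tuba4a and Tubb4a in both libraries. For the close alpha genes it was above 0: 115 and 111 counts for Tuba1a, 132 and 116 for Tuba1b, and 81.3 and 54.3 for Tuba1c. Tubb2a and Tubb2b had the same posterior SD of 361 counts in replicate 1 and values of 298 counts in replicate 2. The largest of these SDs in relation to the count was that of Tuba1c, at 0.928% and 1.35%. All of them were small beside the difference between the libraries. They belong to this quantification alone and do not cover differences from another. Tuba1c, at ranks 2310 and 4327 by TPM, was at ranks 16 and 17 in the mm9 values described further on.

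Most members were represented by 1 transcript. Tuba1c, Tubb2a, Tubb2b, Tubb3 and Tubb4a have 1 annotated transcript each in the deposited tables. The leading transcript held 99.4 ± 0.367% of the TPM of Tuba1a, 97.6 ± 0.465% of Tubb4b and 95.1 ± 0.0230% of Tubb5 (SD, n = 2). The exceptions were Tuba1b and Tuba4a. For Tuba1b the coding transcript Tuba1b-201 held 74.5% in replicate 1 and 85.2% in replicate 2, and the rest went to Tuba1b-202, a 526-base model with a retained intron, at 608 and 245 TPM. In expected counts Tuba1b-202 held 12755 and 4764 fragments, 6.46% and 3.46% of the Tuba1b count. For Tuba4a the leading transcript, Tuba4a-206, held 56.7% and 51.2%, from 105 and 189 expected counts.

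Reads across introns were deposited in a table of their own. They were mapped to mm9 and summed over both replicates, so they have no SD, and the gene tables may count the same reads. Each of the 10 coding transcripts has 3 introns, and all 33 annotated introns of the members carried reads, 1235357 in all. A transcript that is spliced at every intron would give similar reads at each, apart from position. Tubb5 came closest, with 51888 reads at intron 1, 47773 at intron 2 and 59712 at intron 3. Tuba4a, the lowest gene, had 36, 52 and 36 reads. Tubb3 had 16819, 45889 and 36142 reads, and Tubb4a 1010, 2502 and 2008. No window over any of these introns occurred in another gene.

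The introns of the close alpha genes differed far more. Tuba1b had 2299 reads at intron 1, 54320 at intron 2 and 16037 at intron 3. Tuba1c had 1727, 37563 and 1408 reads. In both genes all 100 windows over intron 2 occurred in another gene, against 3 of 100 over intron 1. Intron 2 carried 23.6 times the reads of the lowest intron in Tuba1b and 26.7 times in Tuba1c. Tuba1a had 197073, 198128 and 64722 reads, with 0, 37 and 63 of 100 windows shared. By intron 1, which is nearly free of shared windows in all 3 genes, Tuba1b and Tuba1c lay close together, at a log2 ratio of 0.41, and Tuba1a lay above Tuba1b by a log2 ratio of 6.42. By TPM the same 2 log2 ratios were 5.26 and 2.51. Whether shared sequence accounts for these differences was not tested.

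Among the beta genes Tubb4b had the widest spread over its introns. It had 3212, 11245 and 1380 reads, 8.15 times more at intron 2 than at intron 3, and 49 of 100 windows over its intron 3 occurred in pseudogenes. Tubb2b had 142029, 61603 and 92092 reads with 28 of 100 windows shared at intron 1, and Tubb2a had 14794, 50676 and 20987 reads with none shared. Tubb2b was above Tubb2a at every intron. Junctions at unannotated positions carried 3816 reads in Tubb2a and 5978 in Tubb2b, beside 86457 and 295724 on their annotated introns.

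**Figure D3:**
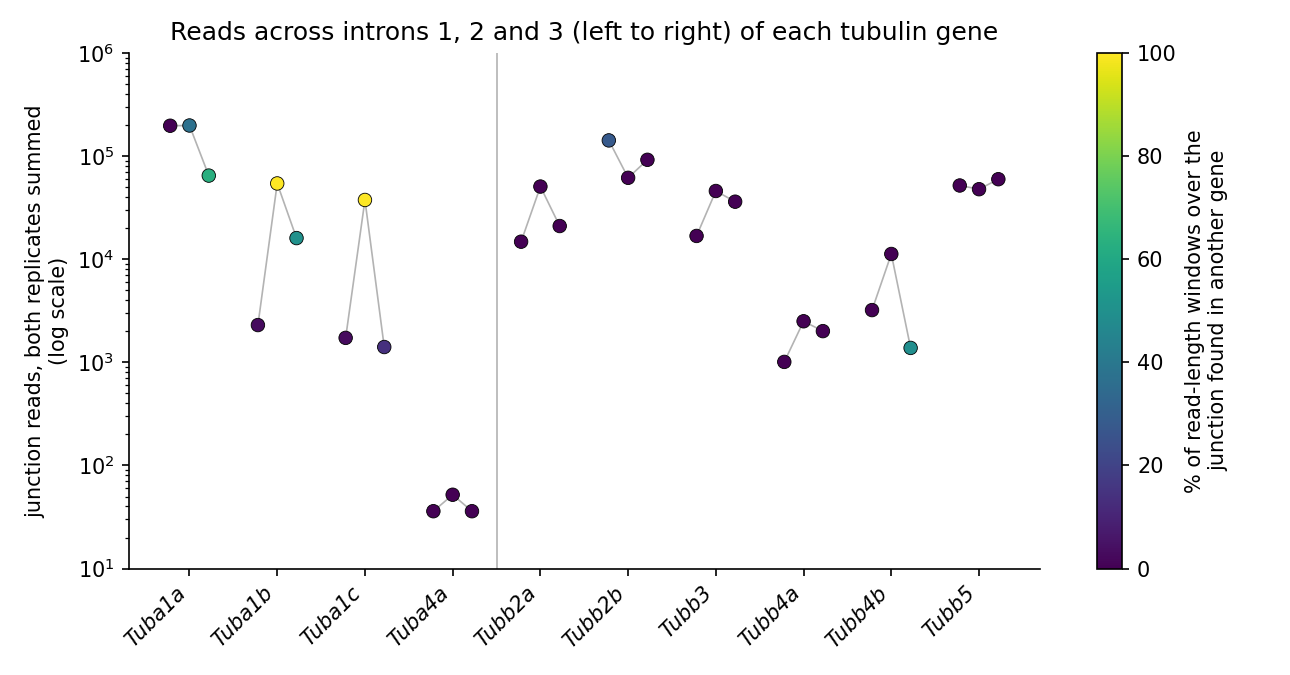
Junction reads (log scale, both replicates summed by the authors) at introns 1, 2 and 3 of each gene from left to right, coloured by the percentage of read-length windows over the junction that occur in another gene. Tuba1b and Tuba1c peak at intron 2, where 100% of the windows are shared, with 54320 and 37563 reads.

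The deposited mm9 gene values, in RPKM (reads scaled by gene length and library size), give a second quantification of this tissue. Each gene has 2 values, RPKM1 and RPKM2, which the files do not tie to a library, so they are set side by side with the TPM and not matched to it. Tuba1a (1710 and 1642 RPKM), Tubb2b (1245 and 1789) and Tubb2a (970 and 1421) were the 3 highest members on this scale. Among the 10 genes Tuba1c differed most in rank between the 2 quantifications. It stood at 243 and 261 RPKM, at ranks 16 and 17 among nuclear protein-coding genes, against ranks 2310 and 4327 by TPM. It held 10.4% and 11.4% of the summed alpha RPKM, against 0.567% and 0.265% of the summed alpha TPM. The mean log2 ratio of Tuba1b over Tuba1c was 0.60 in RPKM and 5.26 in TPM.

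Tubb2a and Tubb2b also stood closer together in mm9. Their mean log2 ratio was 0.35 in RPKM, below the limit for a pair apart, against 1.37 ± 0.03 in TPM (SD, n = 2). Tubb2a held 33.8% and 35.3% of the beta RPKM, while Tubb3 held 10.4% and 8.98% and Tubb5 10.3% and 9.58%. Of the genes without shared windows, Tubb3 (300 and 362 RPKM) and Tubb5 (296 and 386 RPKM) stood near each other in mm9 too, at ranks 14 and 15 and at ranks 15 and 13. Tuba4a was lowest again, at 0.345 and 0.242 RPKM. Of the 9 pairs, 5 stood apart in RPKM against 8 in TPM. The 2 quantifications differ in build, annotation and unit, and may also differ in how they divide reads that fit several genes. The part of each in these differences was not tested.

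**Figure D4:**
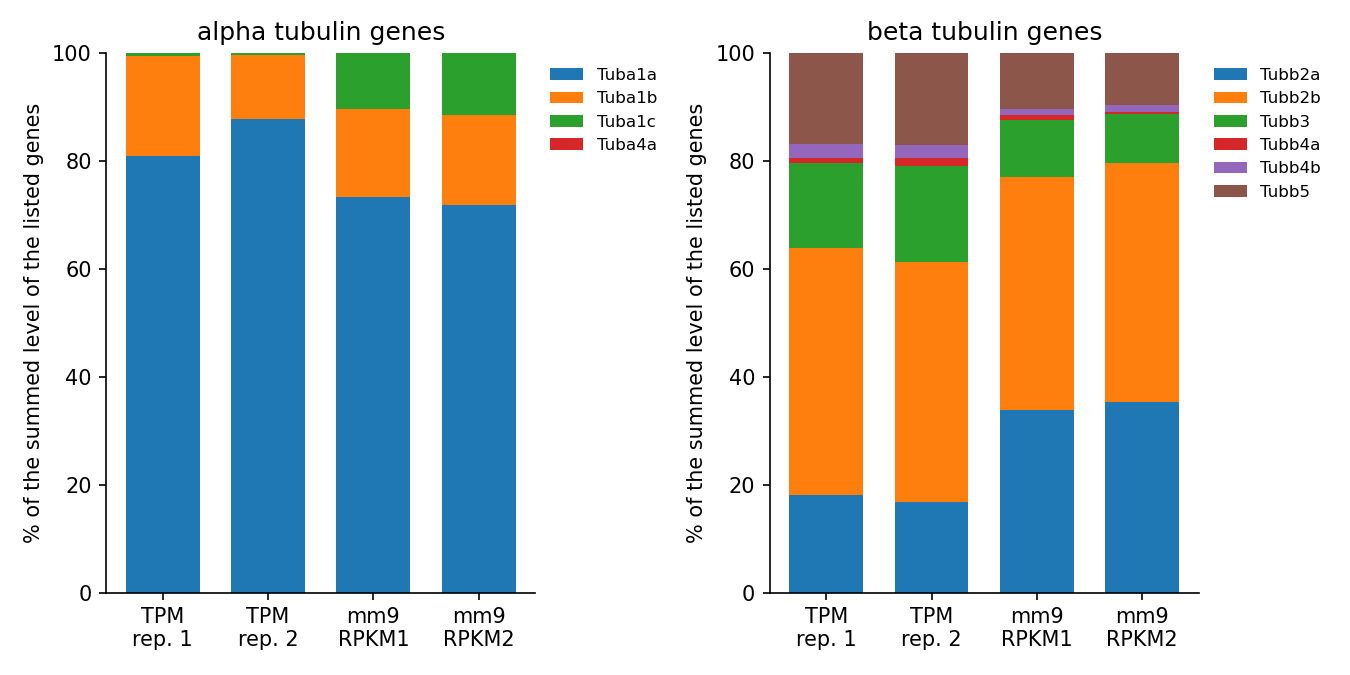
Share of each gene in the summed level of the 4 alpha genes (left) and the 6 beta genes (right), in percent, for TPM in replicates 1 and 2 and for the deposited mm9 values RPKM1 and RPKM2. Tuba1c is barely visible in TPM and reaches 10.4% and 11.4% in RPKM, and Tubb2a is at 18.0% and 16.9% in TPM and at 33.8% and 35.3% in RPKM.

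Between the libraries the members moved in both directions. On the scale log2((TPM + 1) in replicate 2 / (TPM + 1) in replicate 1), 3 genes were higher in replicate 2 and 7 were lower. The higher ones were Tuba1a (0.24), Tubb4a (0.66) and Tuba4a (0.91). The lower ones ran from Tuba1c (-0.96) and Tuba1b (-0.52) to Tubb5 (-0.21) and Tubb3 (-0.06). The Tuba1b value includes Tuba1b-202, the model with a retained intron, at 608 and 245 TPM. The coding transcript Tuba1b-201 alone had 1772 and 1412 TPM. Tubb3 came to 0.01 when values were rescaled without mitochondrial and spike-in rows, which shifted the median of all genes from 0.01 to 0.07. None of the 10 reached a 2-fold difference on this scale, where 2.39% of 15240 genes at a mean TPM of 1 or more were at least 2-fold higher in replicate 2 and 1.14% at least 2-fold lower. Without the pseudocount Tuba4a was 2.20-fold higher in replicate 2. Scaled by TMM or by DESeq2 size factors, Tuba1c passed the 2-fold line, at -1.02 and -1.03.

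The median of the 10 differences was -0.24, against 0.01 for all 15240 genes. Genes of high level as a whole were lower in replicate 2: of 1495 nuclear protein-coding genes at a mean TPM of 100 or more, 70.6% were lower, with a median of -0.20. The pattern of the members is thus near that of other abundant genes. Differences as large as that of Tuba1c in size were found in 4.00% of the 15240 genes, of Tuba4a in 4.76%, of Tubb4a in 11.7% and of Tuba1b in 20.4%.

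**Figure D5:**
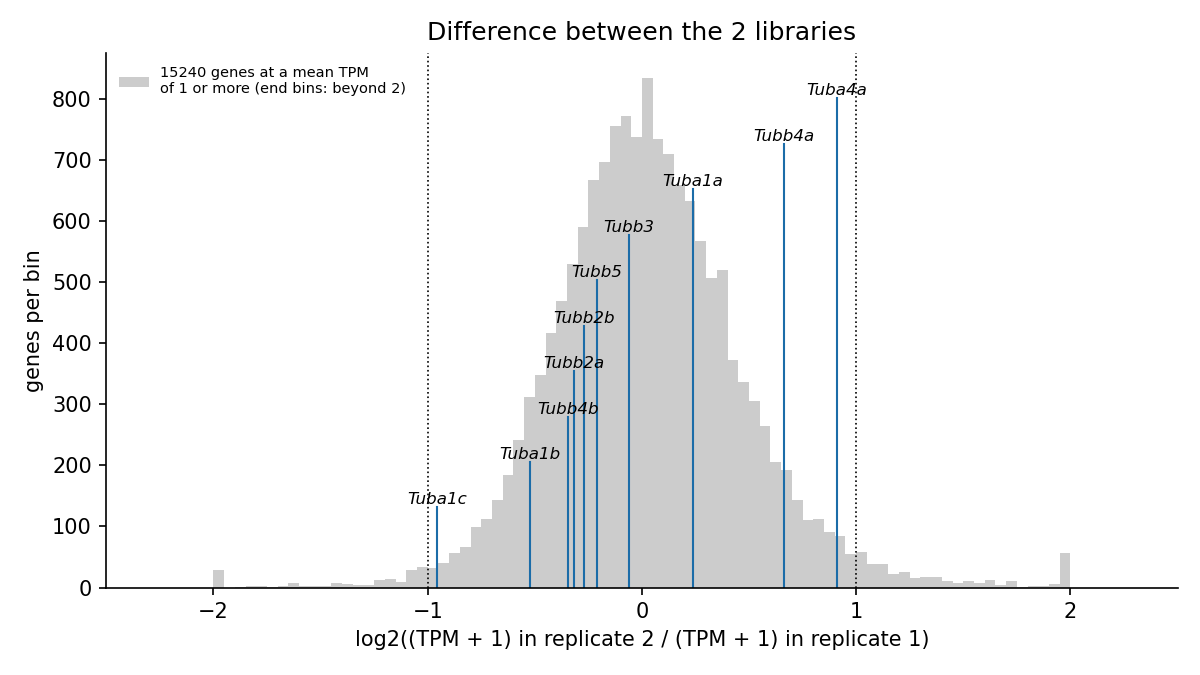
Histogram of the log2 ratio of (TPM + 1) in replicate 2 over replicate 1 for 15240 genes (grey, genes per bin, values beyond 2 gathered in the end bins), with each tubulin gene as a blue line whose height only spaces the names. All 10 lie between the dotted 2-fold lines, from Tuba1c at -0.96 to Tuba4a at 0.91.

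Marker genes also differed between the libraries. For comparison, 51.0% of the 15240 genes at a mean TPM of 1 or more were higher in replicate 2 and 48.8% were lower. All 8 forebrain markers were lower in replicate 2, with a median difference of -1.04 and a summed level of 777 and 340 TPM, and all 8 hindbrain markers were higher, with a median of 2.34 and a summed level of 23.4 and 155 TPM. Of 8 cell cycle genes 7 were lower (median -0.82, summed level 733 and 390 TPM). Of 8 radial glia genes 5 were lower (median -0.34, summed level 2152 and 1970 TPM). Of 10 genes of young neurons 8 were higher (median 0.26, summed level 3188 and 4612 TPM). All 7 erythroid genes (median 0.40, summed level 9656 and 11601 TPM) and all 6 meningeal fibroblast genes (median 0.60, summed level 269 and 527 TPM) were higher. Mitochondrial transcripts made up 8.49% and 12.2% of TPM. The part of any of these in the tubulin differences was not tested, and in bulk tissue fewer cells of a type cannot be told apart from less RNA per cell. All 10 young neuron genes and all 8 radial glia genes reached 1 TPM in both libraries, against 62.1% of nuclear protein-coding genes. So did 6 of 7 erythroid genes, 4 of 5 oligodendrocyte genes and 3 of 5 platelet genes. Reaching this level thus does not by itself identify the tissue. The oligodendrocyte gene that did not reach it, Mog, was at 0 and 0.01 TPM.

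The other tubulin genes were low beside the members other than Tuba4a. Tubb6, Tubg2 and Tubg1 were nevertheless above the median nuclear protein-coding gene, at 5.39 and 5.92 TPM. Of 10 listed, 5 reached 1 TPM in both libraries. The highest was Tubb6, a beta tubulin found mainly outside neurons, at 27.8 and 26.5 TPM. Tubg2 and Tubg1, the gamma tubulins that start new microtubules, had 21.0 and 23.4 TPM and 12.8 and 27.0 TPM. Tubg1 was the only one of 58 genes in the 7 lists of the tubulin pathway that differed 2-fold or more, at 1.02. By the same measure 2.39% of the 15240 genes at a mean TPM of 1 or more were higher and 1.14% were lower, so this count does not set the lists apart. Tubb1, the beta tubulin of platelets, had 0.81 and 1.17 TPM. Tuba8, Tuba3a, Tuba3b and Tubal3 were each at 0.20 TPM or below in both libraries.

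Most of the listed machinery around tubulin was expressed. Of the 58 pathway genes, 53 reached 1 TPM in both libraries, against 62.1% of nuclear protein-coding genes, and 25 were higher and 33 lower in replicate 2. The 5 that did not were all among the other tubulin genes. The 8 listed genes of the gamma tubulin ring complex, which nucleates microtubules, leave out gamma tubulin itself. All 8 were detected and all 8 were lower in replicate 2, with a median of -0.32, against 48.8% lower among the 15240 genes. The cell cycle genes above were lower too, in 7 of 8, and their part in this was not tested. Tubgcp3 led the 8 ring complex genes at 68.6 and 48.7 TPM. The gamma tubulins Tubg1 and Tubg2, counted with the other tubulin genes, went the other way, at 1.02 and 0.15.

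Newly made tubulin is folded by prefoldin and the CCT chaperonin and joined into dimers by the tubulin cofactors. The 8 CCT genes had a median of 175 and 189 TPM, led by Cct5 (292 and 279 TPM) and Cct3 (308 and 256 TPM). The 6 prefoldin genes had a median of 63.7 and 71.2 TPM, led by Pfdn5 (252 and 275 TPM). The 7 cofactor genes had a median of 109 and 80.3 TPM, led by Tbca, which binds beta tubulin (176 and 181 TPM), and Tbcb, which binds alpha tubulin (147 and 137 TPM). Each of these levels was a small fraction of that of Tuba1a or Tubb2b.

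All 16 genes listed for the modification of tubulin were detected, a list that does not hold every such enzyme. Atat1, the enzyme that acetylates alpha tubulin, was far above the rest at 528 and 499 TPM, at rank 178 among nuclear protein-coding genes by mean TPM. Svbp, the partner of the vasohibins that remove the terminal tyrosine, had 133 and 100.3 TPM, and Vash2 and Vash1 had 39.9 and 50.3 TPM and 34.7 and 45.3 TPM. Ttl, which puts the tyrosine back, had 18.4 and 23.1 TPM. The deacetylases Sirt2 and Hdac6 had 98.8 and 95.4 TPM and 98.9 and 86.7 TPM. Ttc5, which recognises nascent tubulin chains and sets off decay of tubulin mRNA when free tubulin is in excess, had 75.1 and 63.9 TPM, and Cnot1 and Cnot11, subunits of the CCR4-NOT complex that carries out this decay, had 32.5 and 40.0 TPM and 22.9 and 17.9 TPM.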

How the data were processed

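Polyadenylated RNA of embryonic day 14.5 whole brain was measured in 2 libraries of 1 group. The authors estimated expected counts per gene and transcript with GENCODE M4 on mm10, per the files' text notes. Which program did so was not given in the sources used here. In the deposited TPM columns the total runs over all rows, mitochondrial and spike-in rows included. The deposited FPKM columns take account of length and of the fragments assigned. The authors' mm9 values are RPKM on Ensembl 65. The deposited junction read counts are for mm9, with both replicates summed and a reproducibility value, a fraction that is low where reads recur. Exon positions of the mm9 table gave the introns, which were paired with those of mm10 by gene and intron length.

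Symbols, coordinates and sequences came from GENCODE vM21 (GRCm38), matched by Ensembl identifier; 884 of 43346 genes had no symbol there. Its transcript models can differ in length from those of M4. For each member the transcript with the longest coding sequence was used. Gm49450 was not counted as another gene in any comparison of windows, those over introns included. The 26345 rows that name no gene held 4.12% and 3.53% of the counts and were left out of ranks.

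The members, the 17 gene lists and the 9 pairs were chosen with earlier results of these data known. The rule for named genes covers all members, the 3 highest genes of each list, list genes that differ 2-fold or more and rank neighbours, of which the text names all members and a part of the others; Tubb1, the 4 low alpha genes, Vash1, Vash2, Ttl, Hdac6, Mog and Gm14150 were named after their values were seen. With 1 library against 1 there are no residual degrees of freedom. Differences used TPM with a pseudocount of 1, which understates changes of low genes. Expected counts were rounded for edgeR 4.0.16 (TMM) and DESeq2 1.42.0 (size factors), used only as other scalings. Python 3.11.15, pandas 2.3.3, numpy 2.4.6 and Biopython 1.88 were used. Protein sequences were not used here, and sequences of the alpha genes are not reported here.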

Additional observations from a re-analysis of the deposited data

How the results depend on the processing

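Of 48 alternatives to the summary values, 39 left the value within the spread between the libraries or within 1.5 times the count, and 9 did not. Rescaling without mitochondrial and spike-in rows put the members at 3.46% of TPM. In mm9 RPKM 5 of the 9 pairs stood apart, the mean log2 ratio of alpha over beta was -0.56 and 4 members were lower in the second value, whose library is not known. In expected counts, which are not corrected for length, alpha over beta was -0.58. The number of members 2-fold apart was 1 in place of 0 with a pseudocount of 0.1 (Tuba4a), with TMM (Tuba1c) and with DESeq2 size factors (Tuba1c). With no filter on low TPM 1.34% of genes were 2-fold apart in place of 3.52%, over 43346 genes. Chosen after seeing the data, reads of the last intron turned Tubb4b over Tubb4a to -0.54.

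Without replicate 1 or replicate 2 in turn the members held 2.89% to 3.03% of TPM, alpha over beta ran from -0.44 to -0.09 and 7 to 8 pairs stood apart; in each library alone 5 members were among the 15 highest genes, and in 8 the leading transcript held 90% or more. Of the other single-gene and single-pair values 157 were within the spread, 44 moved and 1 turned sign. With 2 libraries, either library alone always lies within the SD of their mean. A level, share or ratio with 1 library left out was thus within the spread by arithmetic. Such values are among the 157 and among the 39 summary values above, and say nothing about stability. No paired analysis was possible because both libraries belong to 1 group. Windows of 50 bases left 6 members and windows of 2 read lengths 4 members sharing 20% or more of their windows. Depth limits mainly Tuba4a, with 232 and 363 expected counts.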
